A study of Mus musculus with 6 samples.

Results

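The genes described here are 10 members of the Notch pathway and of the secretory fate program that it controls in the gut: the receptors Notch1, Notch2 and Notch3, the ligands Jag1, Jag2, Dll1 and Dll4, the Notch target Hes1, and the transcription factors Atoh1 and Gfi1. They were chosen by gene symbol, and all 10 stood among the 19616 genes of the deposited count table. RNA was sequenced from jejunal intestinal epithelial cells (IEC), enriched with EDTA, of mice aged 3 months, with 1 library per mouse and mRNA selected by its poly(A) tail. The 3 control mice (Ctr) were wild-type, and their libraries are C1, C3 and C3-3. The 3 Hdac1/2-/- mice, with libraries H1, H5 and H9, carried the villin-Cre transgene with floxed Hdac1 and Hdac2 alleles. Villin-Cre is active in the intestinal epithelium, and other cells left in the preparation keep both genes. The strain background was a mix of C57BL/6J, 129SV and CD1. The labels give neither litter, sex nor sequencing batch, so a batch could not be told apart from the genotype if it followed it.

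Total counts per library ranged from 58017009 to 65902344 in Ctr IEC and from 36111035 to 65230566 in Hdac1/2-/- IEC. Levels are given as CPM, counts relative to the library total after scaling by a TMM factor, which corrects for differences in composition between libraries. A floor of 3 counts, below which a level was not read, corresponded to 0.0405 to 0.0790 CPM, and it covers counting error only. Differences are given as log2 fold changes of Hdac1/2-/- against Ctr IEC with their standard error (SE), from the quasi-likelihood test of edgeR. Adjustment for multiple testing (Benjamini-Hochberg) ran across the 15618 genes left by a filter on low counts, and every adjusted p below comes from this fit unless another is named. A gene was called higher or lower if it met both an adjusted p limit of 0.05 and a 2-fold limit on the change. The p-values and SE rest on the spread between 3 mice per group, as estimated by a fit that shares information on spread across genes. For a gene with very even libraries, the SE can thus be larger than the spread of its own values. With 3 mice per group the smallest p that an exact permutation test allows is 0.10, so none was used.

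The targeted genes were read first. Hdac1 was at 39.1, 34.5 and 48.8 CPM in C1, C3 and C3-3, and at 3.97, 2.53 and 4.81 CPM in H1, H5 and H9. Every Hdac1/2-/- library thus lay far below every Ctr library, with a log2 fold change of -3.43 (SE 0.26, adjusted p = 2.9e-05). Hdac2 was at 32.8, 23.6 and 26.5 CPM in Ctr IEC and at 26.6, 25.4 and 21.4 CPM in Hdac1/2-/- IEC, with overlapping groups and a log2 fold change of -0.18 (SE 0.17, adjusted p = 0.44). Counts summed over a whole gene include exons outside a deleted part, so the Hdac2 counts do not check that deletion. The epithelial label was met by Epcam, the epithelial adhesion molecule, at a mean of 1664 CPM in Ctr and 1081 CPM in Hdac1/2-/- IEC, and by Vil1, the gene of villin, at 4217 and 3047 CPM. The summed level of 6 epithelial markers was 10954 CPM in Ctr and 9524 CPM in Hdac1/2-/- IEC.

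Library C3 stood apart in its sex-linked genes. The Y-linked gene Eif2s3y had 1477 counts in C3 and at most 5 counts in each other library. Xist, the RNA that silences an X chromosome in female cells, had 13 counts in C3 and 2413 to 6883 counts in the other libraries. The fold changes of the 10 genes without C3 are therefore given below.

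Notch receptors are single-pass membrane proteins that are cut when a ligand of the Jagged or Delta-like family on a neighbouring cell binds them. The freed intracellular part enters the nucleus and turns the DNA-binding protein RBPJ, which otherwise holds corepressors and histone deacetylases at its targets, into an activator of genes such as Hes1. In intestinal crypts HES1 represses Atoh1, so cells with high Notch activity become absorptive, whereas cells that keep Atoh1, many of which also carry Delta-like ligands, become goblet, Paneth, enteroendocrine or tuft cells.

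In Hdac1/2-/- IEC the ligand Jag2 and the receptor Notch3 rose from low levels by more than an order of magnitude, and the ligand Jag1 rose about as far as the fold limit. The Delta-like ligands moved apart, with Dll4 higher and Dll1 lower, both within the fold limit. Atoh1 and Gfi1 were lower, again within that limit, while Notch1, Notch2 and Hes1 did not pass the test. Of the 10 genes, 3 were called higher and 0 were called lower, where 12.4% of all tested genes were called higher and 12.7% lower. At an unadjusted p under 0.05, edgeR, DESeq2 and limma-voom each put 3 of the 10 genes lower, none of them by 2-fold. Without the fold limit, 7 of the 10 met the adjusted p limit, 4 of them higher and 3 lower, against 40.8% of all tested genes. That count was 2 without H5, 3 without C3-3 or without H9, and 4 without C1, without H1 or with library totals in place of TMM factors. The levels of both groups did not overlap for 9 of the 10 genes, against 53.2% of all tested genes. The median log2 fold change was 0.12 over the 10 genes and -0.01 over all tested genes, and the median size of the change was 0.80 and 0.59. Scaling by library totals moved the median of all tested genes to 0.18 and gave 2463 genes higher and 1538 lower in place of 1944 and 1989, so each fold change is to be read against that shift.

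**Figure D1:**
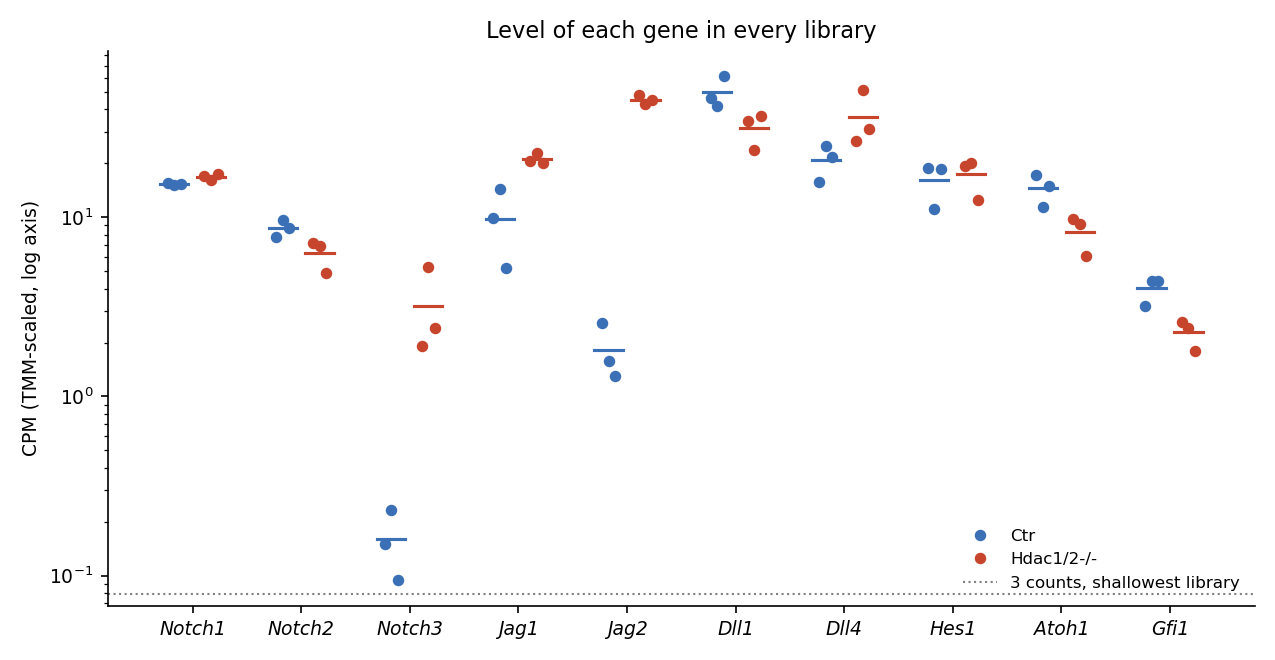
Level of each of the 10 genes in every library, in CPM on a log axis, with 1 point per mouse, bars for the group mean (n = 3) and a dotted line at 3 counts in the shallowest library. The means of Jag2 and Notch3 differ between the groups by 24.9-fold and 20.0-fold, while the points of Hes1 intermingle.

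Among the receptors, Notch3 changed most. It had 10, 13 and 5 counts in C1, C3 and C3-3 and 141, 200 and 148 counts in H1, H5 and H9. Those counts correspond to 0.151, 0.234 and 0.0941 CPM in Ctr IEC and to 1.90, 5.26 and 2.41 CPM in Hdac1/2-/- IEC. The groups were widely separated, with H5 the highest of the deleted libraries. The mean was 20.0-fold higher in Hdac1/2-/- IEC, with a log2 fold change of 4.29 (SE 0.54, adjusted p = 3.7e-04). Without C3 it was 4.66, and with each mouse left out in turn it ranged from 3.74 to 4.66. Notch3 reached the level that the filter on low counts asks for in 1 of 3 Ctr libraries and in all 3 Hdac1/2-/- libraries, so it was tested on account of the deleted group. The annotated gene Gm17276 overlaps Notch3 on the opposite strand, and it rose as well, from 8, 1 and 1 counts to 61, 34 and 64 counts. Since the sources used here do not say whether reads were counted by strand, reads of Notch3 and of Gm17276 cannot be told apart.

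Notch3 is also known as the receptor of pericytes and vascular smooth muscle, and the markers of those cells were read beside it. Of 5 mural and smooth muscle markers, 4 were tested, of which 3 were called lower and 1 higher in Hdac1/2-/- IEC. The 3 called lower, Acta2, Myh11 and Des, were tested on account of the Ctr group. The summed level of all 5 markers was 58.5, 41.8 and 3.35 CPM in C1, C3 and C3-3 and 9.51, 19.6 and 10.6 CPM in H1, H5 and H9. This sum of 5 markers thus differed more among the Ctr libraries than between the groups. In Hdac1/2-/- IEC it was mostly Pdgfrb, at a mean of 13.0 CPM out of 13.3 CPM. Rgs5, a pericyte gene, had 323, 172 and 8 counts in Ctr IEC and 2, 2 and 5 counts in Hdac1/2-/- IEC. Myh11, the smooth muscle myosin, had 1680, 700 and 24 counts in Ctr IEC and 1, 0 and 0 counts in Hdac1/2-/- IEC. Acta2 and Des likewise had at most 8 counts in each Hdac1/2-/- library. These 4 markers were at or near 0 in the Hdac1/2-/- libraries, and the fifth was not. Pdgfrb, a receptor shared by pericytes and fibroblasts and the most abundant gene of the list by its mean in Hdac1/2-/- IEC, went the other way, from 2.51, 0.864 and 1.49 CPM to 9.30, 19.3 and 10.4 CPM, with a log2 fold change of 3.00. The part of these cells in the Notch3 result was not tested.

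Notch1, the main receptor of crypt progenitors together with Notch2, was almost level. It was at 15.5, 15.2 and 15.4 CPM in C1, C3 and C3-3 and at 16.9, 16.1 and 17.4 CPM in H1, H5 and H9. The groups did not overlap, but the log2 fold change was only 0.13 (SE 0.14, adjusted p = 0.51). Notch2 was at 7.73, 9.67 and 8.67 CPM in Ctr IEC and at 7.14, 6.95 and 4.91 CPM in Hdac1/2-/- IEC. These groups did not overlap either, and the difference did not pass the test, with a log2 fold change of -0.46 (SE 0.22, adjusted p = 0.13). Without C3 the log2 fold changes were 0.13 for Notch1 and -0.37 for Notch2. As a log2 ratio of counts within each library, which needs no scaling between libraries, Notch2 to Notch1 was -1.003, -0.65 and -0.82 in Ctr IEC and -1.25, -1.21 and -1.82 in Hdac1/2-/- IEC. Relative to Notch1, Notch2 was therefore lowest in H9.

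Levels of different genes were compared per length, as CPM per kilobase of exon. In Ctr IEC the mean level per kilobase was 1.08 for Notch1, 0.806 for Notch2 and 0.0197 for Notch3. In Hdac1/2-/- IEC it was 1.18 for Notch1, 0.587 for Notch2 and 0.394 for Notch3. Notch1 was the most abundant of these receptors in both groups, and Notch3 the least. As a share of the summed level of these 3 receptors, Notch3 went from 1.03% ± 0.42 (SD, n = 3) to 17.7% ± 8.1, and Notch2 from 42.2% ± 2.8 to 27.1% ± 4.4. The share of Notch1 was 56.7% ± 3.0 in Ctr and 55.1% ± 7.8 in Hdac1/2-/- IEC. In H5, Notch3 and Notch2 had nearly the same share, 26.9% and 26.6%, whereas in H1 and H9 Notch3 stayed below Notch2.

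**Figure D2:**
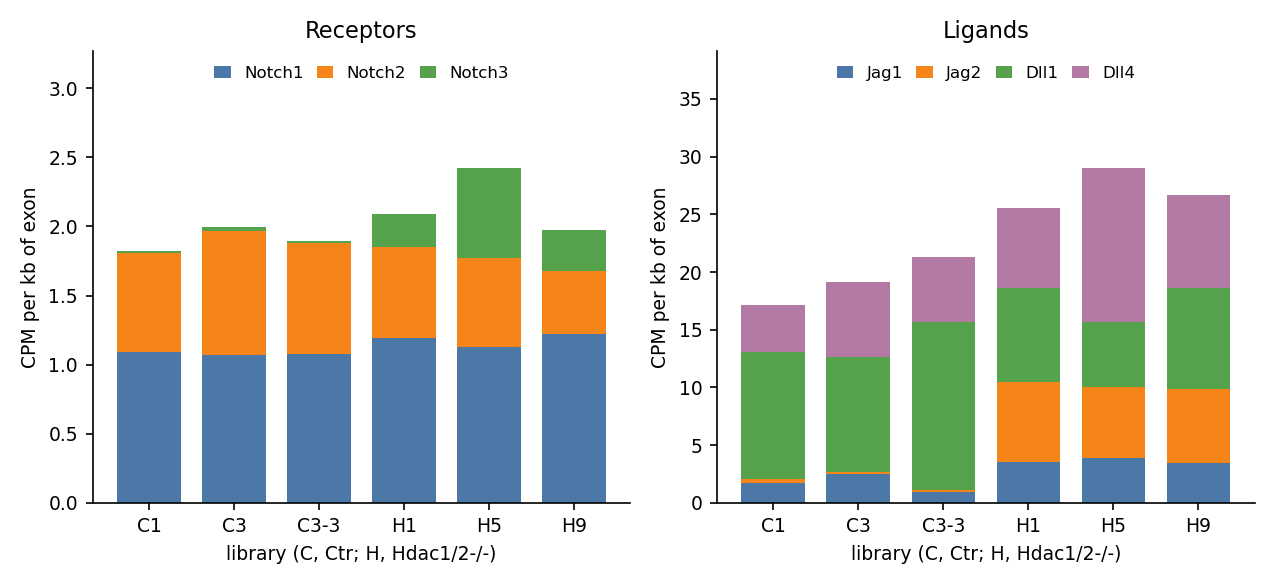
Summed level of the 3 receptors (left) and of the 4 ligands (right) in every library, in CPM per kilobase of exon, with 1 stacked bar per mouse. Jag2 is a thin band in the Ctr libraries and 24.1% of the ligand sum on average in the Hdac1/2-/- libraries, where Dll1 takes a smaller part.

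The ligand Jag2 ranked 245 of 15618 genes by log2 fold change and Notch3 ranked 288, a gap smaller than the SE of Notch3 that turned without C3. It had 171, 88 and 69 counts in C1, C3 and C3-3 and 3569, 1630 and 2759 counts in H1, H5 and H9. In CPM it was at 2.58, 1.58 and 1.30 in Ctr IEC and at 48.2, 42.9 and 44.8 in Hdac1/2-/- IEC. The deleted libraries lay close together, and the lowest of them was well over 10 times the highest Ctr library. The mean was 24.9-fold higher, with a log2 fold change of 4.63 (SE 0.27, adjusted p = 7.1e-06). Without C3 it was 4.54, and with each mouse left out in turn it ranged from 4.45 to 4.98.

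Since Jag2 and Notch3 rose together, the starts of both genes are shown, with Atoh1 for comparison as a gene that was lower. RefSeq promoter windows (build GRCm38.p6, 250 bases before to 50 bases after the annotated start) were found for 9 of the 10 genes, as 11 windows, since Dll1 and Gfi1 have 2 each. The gene without a window was Hes1, so the motif counts below do not cover this Notch target. The windows are at chr12:112929446-112929745 on the minus strand for Jag2, chr17:32166841-32167140 on the minus strand for Notch3, and chr6:64728875-64729174 on the plus strand for Atoh1. Capitals mark the GC box, GGGCGG or its reverse complement, the motif of SP-family activators.
Jag2: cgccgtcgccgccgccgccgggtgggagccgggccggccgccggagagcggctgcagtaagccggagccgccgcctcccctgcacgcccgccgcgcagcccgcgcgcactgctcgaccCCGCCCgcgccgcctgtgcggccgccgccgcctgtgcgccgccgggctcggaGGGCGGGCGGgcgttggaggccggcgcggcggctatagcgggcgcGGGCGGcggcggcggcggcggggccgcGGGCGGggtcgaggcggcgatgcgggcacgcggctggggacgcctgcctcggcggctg
Notch3: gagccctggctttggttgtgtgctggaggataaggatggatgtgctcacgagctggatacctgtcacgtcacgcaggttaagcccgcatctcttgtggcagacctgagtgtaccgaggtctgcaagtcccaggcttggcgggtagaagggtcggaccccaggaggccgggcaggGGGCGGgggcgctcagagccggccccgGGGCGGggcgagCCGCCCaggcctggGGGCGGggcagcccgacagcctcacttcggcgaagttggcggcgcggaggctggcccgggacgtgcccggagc
Atoh1: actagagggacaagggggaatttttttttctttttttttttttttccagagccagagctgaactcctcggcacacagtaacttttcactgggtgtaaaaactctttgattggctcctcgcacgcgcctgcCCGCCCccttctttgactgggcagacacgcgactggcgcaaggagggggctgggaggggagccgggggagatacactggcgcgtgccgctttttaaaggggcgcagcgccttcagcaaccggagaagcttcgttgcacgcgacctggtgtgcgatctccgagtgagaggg
The Jag2 window was 86.0% G and C and held 63 CpG dinucleotides, against medians of 52.7% and 7 over all 32851 windows, and only 0.0304% of all windows held as many CpG dinucleotides. The Notch3 window was 70.0% G and C with 25 CpG dinucleotides, and the Atoh1 window 56.7% with 20. The windows of Notch2 (73.0%, 41 CpG dinucleotides) and Notch1 (68.3%, 23), neither of which was called, were as rich or nearly so. That of Jag1, which was called higher, had 55.7% and 22. Dll4 had 63.7% and 17, Dll1 62.7% and 24 with 56.3% and 15, and Gfi1 58.0% and 16 with 58.0% and 10. The GC box was found 5 times in the Jag2 window, 4 times in that of Notch3 and 1 time in that of Atoh1, counting both strands. It was also found in those of Notch1 (5), Notch2 (7) and Dll4 (2), none of which was called, and it was absent from those of Jag1, Dll1 and Gfi1. Of all windows, 35.7% held it on either strand. TGGGAA, the core of the sequence that RBPJ binds, was in 0 of the 11 windows on either strand, and 25.6% of all windows held it. CACNAG, the N-box of HES proteins, was in 6 of the 11 windows, among them those of Notch3 and Atoh1 but not that of Jag2, and in 42.5% of all windows. A match describes the letters in a window and is not a bound site.

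Jag1, the other Jagged ligand, rose less and less evenly. It was at 9.89, 14.4 and 5.23 CPM in C1, C3 and C3-3 and at 20.6, 22.8 and 20.1 CPM in H1, H5 and H9. The deleted libraries lay close together above the Ctr libraries, which differed among themselves by more than 2-fold, with C3 highest and C3-3 lowest. The log2 fold change was 1.10 (SE 0.32, adjusted p = 0.023), a mean 2.15-fold higher. The call held without C3, at a log2 fold change of 1.49, but was lost with any other mouse left out. Without C3-3 the log2 fold change was 0.81, below the fold limit. Without C1, H1, H5 or H9 the adjusted p was 0.060, 0.061, 0.076 and 0.051, within a range of 0.0023 to 0.076 over all alternatives. Within each library, the log2 ratio of Jag2 to Jag1 counts was -1.94, -3.18 and -2.01 in Ctr IEC and 1.22, 0.91 and 1.16 in Hdac1/2-/- IEC. Jag1 was thus the more abundant Jagged ligand in every Ctr library and Jag2 in every Hdac1/2-/- library, per length as well as in counts.

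Dll1 and Dll4 are the Delta-like ligands that serve crypt stem cells in an overlapping way. Dll1 was at 46.4, 41.8 and 61.4 CPM in C1, C3 and C3-3 and at 34.3, 23.8 and 36.9 CPM in H1, H5 and H9. It was lower in every deleted library than in every Ctr library, with a log2 fold change of -0.65 (SE 0.21, adjusted p = 0.033), short of 2-fold. Its adjusted p rose to 0.12 with library totals, 0.13 without C3-3, 0.061 without H1 and 0.093 without H5, in a range of 0.020 to 0.13, and without C3 the log2 fold change was -0.76. Dll4 moved the other way. It was at 15.8, 25.1 and 21.8 CPM in Ctr IEC and at 26.7, 51.3 and 31.0 CPM in Hdac1/2-/- IEC. The highest library was H5, and H1 lay just above the highest Ctr library, C3. The log2 fold change was 0.80 (SE 0.27, adjusted p = 0.044), again short of 2-fold, and 0.96 without C3. Its adjusted p rose above 0.05 with upper quartile scaling (0.058), with limma-voom (0.057) and without C1 (0.11), C3-3 (0.085), H5 (0.14) or H9 (0.055), in a range of 0.012 to 0.14. Without H5 its log2 fold change was 0.47.

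Dll4 is also the ligand of endothelial tip cells. Of 6 endothelial markers 3 were tested, and 1, Tie1, was called higher, although it reached the filter level in the deleted group only. Their summed level was 2.63, 1.60 and 1.39 CPM in C1, C3 and C3-3 and 1.85, 2.89 and 3.54 CPM in H1, H5 and H9, with Pecam1, an adhesion molecule of endothelium and blood cells, the most abundant. The defining marker Cdh5 had 35, 3 and 3 counts in C1, C3 and C3-3 and 10, 8 and 12 counts in H1, H5 and H9. Kdr, the other, had 39, 3 and 0 counts in Ctr IEC and 4, 6 and 8 counts in Hdac1/2-/- IEC. By mean CPM both were lower in Hdac1/2-/- IEC, Cdh5 at 0.180 against 0.213 and Kdr at 0.114 against 0.214, with most Ctr counts in C1. The sum of the 6 markers was nonetheless higher on average in Hdac1/2-/- IEC, at 2.76 CPM against 1.87 CPM. The part of these cells in the Dll4 result was not tested. Annotated transcripts overlap these ligands, Gm14207 over Dll4 and A930024N18Rik over Dll1. Gm14207 had 265 to 511 counts and A930024N18Rik 53 to 120 counts per library, neither was called, and without strand their reads cannot be told apart from those of the ligands.

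Per kilobase of exon, the ligands in Ctr IEC ranked Dll1 (11.8 CPM per kilobase), Dll4 (5.42), Jag1 (1.69) and Jag2 (0.261). In Hdac1/2-/- IEC the order by mean was Dll4 (9.43), Dll1 (7.51), Jag2 (6.50) and Jag1 (3.63). The summed level of the 4 ligands was 19.2 ± 2.1 CPM per kilobase in Ctr and 27.1 ± 1.8 in Hdac1/2-/- IEC. The ligand sum was therefore larger, and it was spread more evenly over the 4 genes. Dll1 made up 61.4% ± 8.6 of that sum in Ctr and 28.0% ± 7.5 in Hdac1/2-/- IEC, whereas Jag2 made up 1.41% ± 0.67 and 24.1% ± 2.9. Dll4 made up 28.2% ± 5.3 and 34.4% ± 10.1, and its groups overlapped in this share. In Hdac1/2-/- IEC the neighbours Dll4, Dll1 and Jag2 did not hold 1 order, since Dll1 was the highest of them in H1 and H9 and Dll4 in H5.

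Hes1, the Notch target that represses Atoh1, was at 18.8, 11.1 and 18.6 CPM in C1, C3 and C3-3 and at 19.4, 20.2 and 12.5 CPM in H1, H5 and H9. The groups overlapped, with C3 and H9 low. Its log2 fold change was 0.10 (SE 0.26, adjusted p = 0.78), and the sign turned without C3 (-0.10) and without H5 (-0.01). Atoh1, the transcription factor that sets the secretory fate, was at 17.2, 11.4 and 14.9 CPM in Ctr IEC and at 9.72, 9.13 and 6.05 CPM in Hdac1/2-/- IEC. Every deleted library lay below every Ctr library, with H9 lowest. The log2 fold change of Atoh1 was -0.81 (SE 0.24, adjusted p = 0.026), short of 2-fold, and -0.95 without C3. Its adjusted p rose to 0.11 with library totals, 0.080 without C1, 0.074 without C3-3, 0.0503 without H5 and 0.081 without H9, in a range of 0.0071 to 0.11.

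The pair was also compared within libraries. The log2 ratio of Hes1 to Atoh1 counts was 0.12, -0.04 and 0.32 in C1, C3 and C3-3 and 0.998, 1.14 and 1.04 in H1, H5 and H9. Hes1 and Atoh1 thus had nearly equal counts in Ctr IEC, and Hes1 about 2 times those of Atoh1 in each Hdac1/2-/- library, although Hes1 itself overlapped between the groups. The mean of this log2 ratio went from 0.13 ± 0.18 to 1.06 ± 0.07 (SD, n = 3). C3 and H9, which were low in Hes1, were each also the lowest of their group in Atoh1.

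Gfi1, a repressor that acts after Atoh1 and keeps goblet and Paneth cells from the enteroendocrine fate, was at 3.18, 4.41 and 4.42 CPM in C1, C3 and C3-3 and at 2.60, 2.42 and 1.80 CPM in H1, H5 and H9. It was lower in every deleted library than in every Ctr library, by a log2 fold change of -0.81 (SE 0.28, adjusted p = 0.042), short of 2-fold. Without C3 the log2 fold change was -0.73 and the adjusted p 0.12. The adjusted p also rose above 0.05 with library totals (0.13), with no filter (0.052) and without C3-3 (0.14), H1 (0.060), H5 (0.077) or H9 (0.14), in a range of 0.014 to 0.14. Gfi1 is also expressed in lymphocytes, and 5 of 5 lymphocyte markers were tested, of which 2 were called lower. Their summed level was 99.5, 366 and 317 CPM in C1, C3 and C3-3 and 47.9, 111 and 96.9 CPM in H1, H5 and H9, with the granzyme gene Gzma the most abundant. C1 was the lowest Ctr library both in this sum and in Gfi1, whereas H1 was the lowest Hdac1/2-/- library in this sum and the highest in Gfi1. The part of these cells in the Gfi1 result was not tested.

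**Figure D3:**
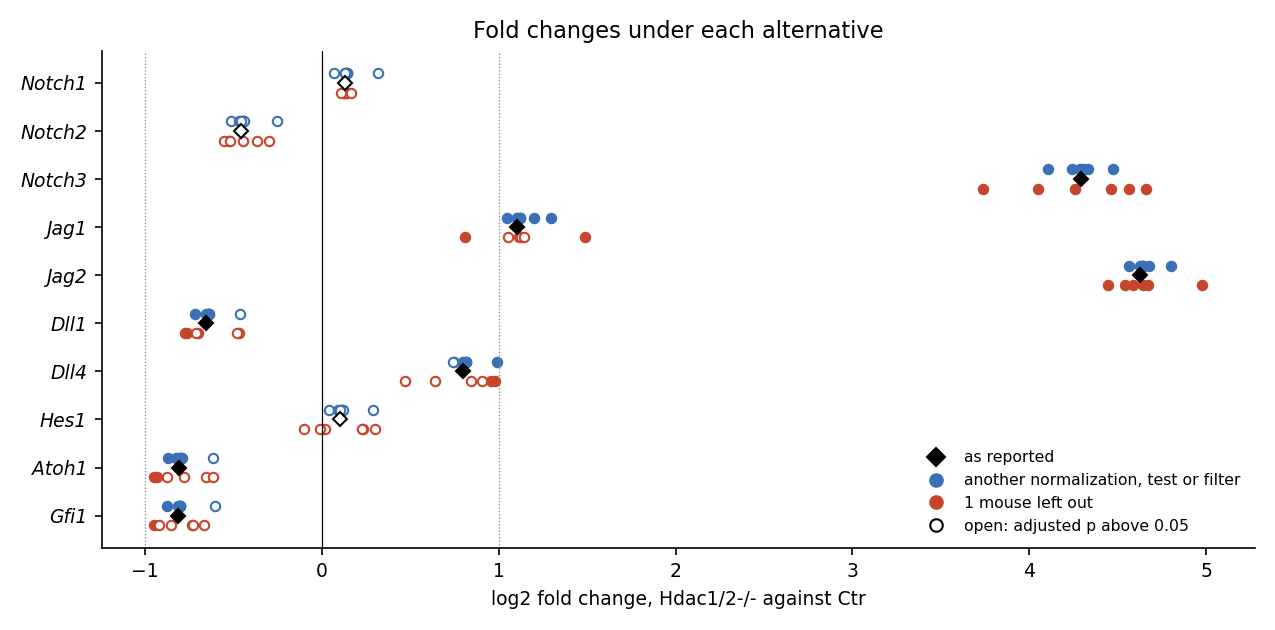
Log2 fold change of each of the 10 genes as reported (black diamonds, n = 3 mice per group), with another normalization, test or filter (blue) and with 1 mouse left out (red), where open symbols had an adjusted p above 0.05 and dotted lines mark 2-fold. Jag2 and Notch3 stay beyond 3.7 throughout, whereas Jag1, Dll1, Dll4, Atoh1 and Gfi1 each have open symbols.

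A wider set of secretory fate transcription factors was read next. Of 15 such genes, Atoh1 and Gfi1 included, all were tested, 2 were called lower and 0 higher, where 12.7% and 12.4% of all tested genes were, and 4 met the adjusted p limit, where 40.8% of all tested genes did. The share called lower was thus near that over all tested genes. At an unadjusted p under 0.05, edgeR, DESeq2 and limma-voom each put 0 of the 15 higher. Their median log2 fold change was -0.06, beside -0.01 over all tested genes. Pou2f3, the master regulator of tuft cells, was at 1.04, 1.53 and 1.41 CPM in Ctr IEC and at 0.513, 0.342 and 0.488 CPM in Hdac1/2-/- IEC. The groups were well separated, with a log2 fold change of -1.55 (SE 0.36, adjusted p = 0.0080). Gfi1b, a relative of Gfi1 that is expressed in tuft cells, fell from 17, 40 and 22 counts to 2, 6 and 7 counts, with a log2 fold change of -2.29 (SE 0.67, adjusted p = 0.023). It reached the filter level in all 3 Ctr libraries and 1 of 3 Hdac1/2-/- libraries, so it was tested on account of the Ctr group. The call was lost without C3, without H1 and without H9, where the highest adjusted p was 0.089. Not past the test were, among others, Spdef, which acts in goblet and Paneth cells (0.11), Neurog3, the enteroendocrine determinant (-0.06), and Sox9, a crypt factor that Paneth cells need (-0.79, adjusted p = 0.052).

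**Figure D4:**
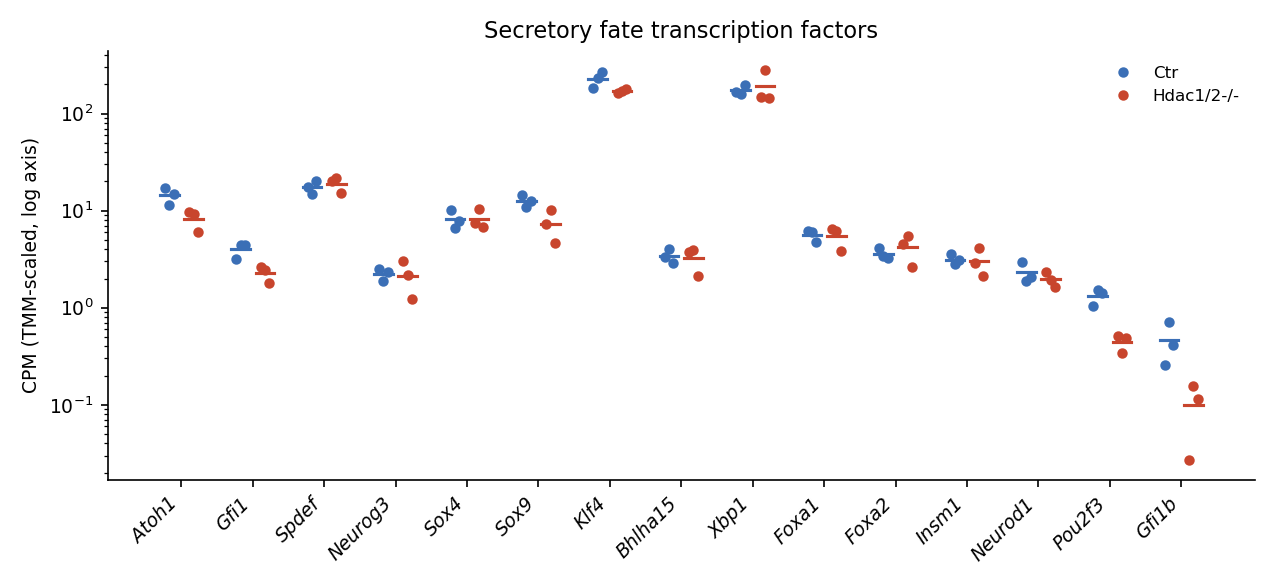
Level of 15 secretory fate transcription factors in every library, in CPM on a log axis, with 1 point per mouse and bars for the group mean (n = 3). Pou2f3 and Gfi1b, at the right, were called lower, and most other factors overlap between the groups.

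The cell types that these factors specify were read from their markers. In bulk IEC, fewer cells of a type and less RNA per cell cannot be told apart. All 6 Paneth markers were called lower, and their sum went from 5055, 3126 and 3352 CPM in C1, C3 and C3-3 to 216, 232 and 151 CPM in H1, H5 and H9. Lyz1, the lysozyme gene and the most abundant of them in Ctr IEC, had a log2 fold change of -4.83 (adjusted p = 3.2e-05). The Paneth sum therefore differed far more between the groups than Atoh1, Gfi1 or Sox9. Of 7 goblet markers 3 were called lower, with a sum of 18420, 19893 and 21039 CPM in Ctr IEC and 6566, 13662 and 9475 CPM in Hdac1/2-/- IEC. Muc2, the main mucin of goblet cells, did not pass the test (-0.94, adjusted p = 0.11). Of 5 tuft markers, which share Pou2f3 with the factors above, 4 were called lower and 1, Trpm5, was called higher. Dclk1, the first of them, went from 287, 432 and 214 counts to 25, 8 and 12 counts, near the floor. The tuft sum hardly differed, at a mean of 29.0 CPM in Ctr and 27.0 CPM in Hdac1/2-/- IEC, because it was mostly Trpm5 in the latter. Of 4 stem cell markers 2 were called lower, Lgr5 (-1.54, adjusted p = 0.0053) and Olfm4 (-1.58, adjusted p = 0.0024), the second of which is also known as a Notch-dependent gene. The part of these cell types in the results of the 10 genes was not tested.

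The remaining Notch pathway was followed with a list of 61 genes sorted by role, of which 60 were in the table and 57 were tested. Of these, 9 were called higher and 6 lower, beside 12.4% and 12.7% of all tested genes, and 25 met the adjusted p limit, beside 40.8%. These shares were near those over all tested genes, and 4 of the 9 called higher, Notch3, Dlk2, Aph1c and Hes5, were tested on account of the deleted group. With library totals in place of TMM factors 3 were called lower, and with at least 10 counts asked for in every library 5 were called higher. The median log2 fold change of the list was -0.08, also with Hes5 at its lower bound. Without the 8 genes of this list that are described above, 49 genes were tested, of which 6 were called higher and 6 lower, shares close to those over all tested genes.

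**Figure D5:**
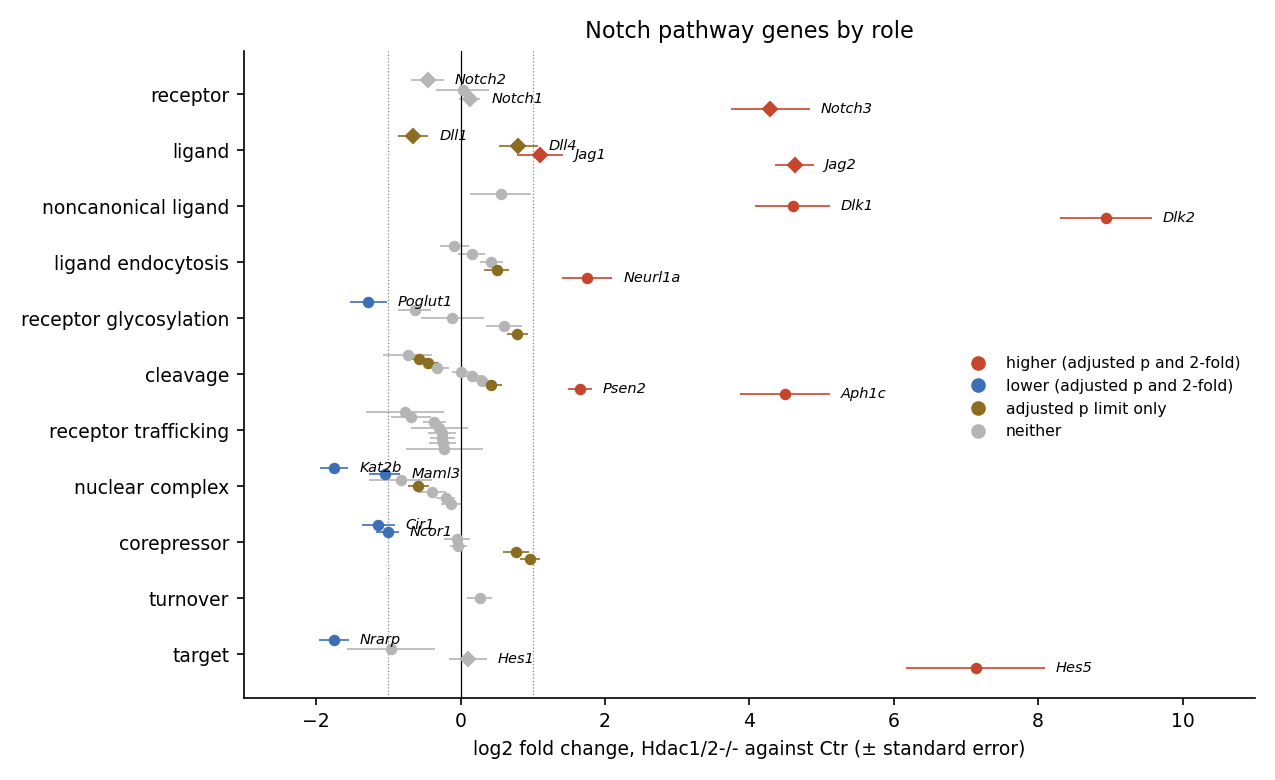
Log2 fold change with its SE for the 57 tested Notch pathway genes, in rows by role, with diamonds for the 8 genes described singly, colours for the call and dotted lines at 2-fold. The increases past 4 are those of Notch3, Jag2, Dlk1, Dlk2, Aph1c and Hes5, of which the last is a fitted value against 0 counts and no bound, while nuclear complex and corepressor rows hold 4 of the 6 decreases.

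Among noncanonical ligands, which lack part of the Notch-binding region, 2 of 3 were called higher. Dlk1, an imprinted gene with a membrane-bound product, was at 0.377, 1.08 and 0.564 CPM in C1, C3 and C3-3 and at 8.89, 24.6 and 15.6 CPM in H1, H5 and H9, with a log2 fold change of 4.60 (SE 0.52, adjusted p = 3.2e-04). Its relative Dlk2 had 1, 2 and 0 counts in Ctr IEC and 914, 198 and 666 counts in Hdac1/2-/- IEC. The ratio over the groups was 597, with a 95% counting interval of 204 to 2899. Dlk2 was thus all but absent from Ctr IEC, Dlk1 was low there, and both were higher in every deleted library. Dlk2 reached the filter level in 0 of 3 Ctr libraries and was tested on account of the deleted group.

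Several genes that process ligands and receptors changed as well. Neurl1a, a ubiquitin ligase that drives ligand uptake, rose from 0.589, 0.576 and 0.527 CPM to 1.32, 2.00 and 2.41 CPM (log2 fold change 1.75, adjusted p = 0.0039). Poglut1, which adds glucose to the receptor, was called lower (-1.27, adjusted p = 0.0039), whereas Pofut1, which adds fucose, was higher within the fold limit (0.79, adjusted p = 0.0028). Of 10 genes of receptor cleavage, 2 subunits of gamma-secretase, the enzyme that frees the intracellular part, were called higher. Psen2 was at 12.2, 12.0 and 11.6 CPM in Ctr IEC and at 31.1, 38.0 and 43.3 CPM in Hdac1/2-/- IEC, with a log2 fold change of 1.65 (SE 0.16, adjusted p = 1.0e-04). Aph1c rose from 4, 3 and 6 counts to 215, 56 and 50 counts (log2 fold change 4.49, SE 0.62, adjusted p = 5.8e-04), and it too reached the filter level in the deleted group only. With each mouse left out in turn, the log2 fold change of Aph1c ranged from 3.88 to 4.88. The paralogs Aph1a (0.29) and Aph1b (-0.73) did not pass the test, and Aph1b and Aph1c are close copies between which counting could split reads. Psenen, another subunit, was lower within the fold limit (-0.58, adjusted p = 0.0082). Numb, which sorts the receptor inside the cell, did not pass the test either (-0.36, adjusted p = 0.11).

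In the nucleus, Rbpj itself was at 10.1, 10.1 and 11.3 CPM in Ctr IEC and at 8.51, 6.58 and 8.94 CPM in Hdac1/2-/- IEC. The groups did not overlap, but the difference did not pass the test (-0.39, SE 0.19, adjusted p = 0.14). Of 7 genes of the activating complex, 2 were called lower. Kat2b, a histone acetyltransferase, went from 37.6, 31.6 and 32.2 CPM to 12.7, 8.03 and 9.34 CPM, with a log2 fold change of -1.75 (SE 0.20, adjusted p = 2.1e-04). Maml3, a Mastermind coactivator, was just past the fold limit (-1.05, adjusted p = 0.0045), and its call was lost with library totals (-0.86), without C3-3 and without H9, with log2 fold changes of -1.14 to -0.91 when mice were left out. Of 6 corepressor genes, 2 were called lower, Cir1 (-1.14, adjusted p = 0.0041) and Ncor1 (-1.01, adjusted p = 9.5e-04). Ncor1 lay at the fold limit and was called in 7 of 14 alternatives, and Cir1 in 12 of 14, with the call lost by library totals and without H5 (-0.94). Ctbp2 (0.76, adjusted p = 0.0089) was higher within the fold limit. The corepressor genes therefore moved in both directions.

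Targets of the pathway were read last. Nrarp, a target that feeds back on the active complex, was at 23.6, 19.7 and 20.5 CPM in C1, C3 and C3-3 and at 6.77, 7.34 and 4.83 CPM in H1, H5 and H9. Every deleted library lay well below every Ctr library, with a log2 fold change of -1.75 (SE 0.21, adjusted p = 2.5e-04), and the call held in all 14 alternatives. Hes5, a relative of Hes1, had 0 counts in every Ctr library and 22, 14 and 15 counts in H1, H5 and H9. Against a floor of 3 counts per library it was at least 5.84-fold higher, at a level of only 0.303 CPM, and it was tested on account of the deleted group. Heyl did not pass the test (-0.97, adjusted p = 0.24).

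For each called gene of the 10, the genes with the most similar levels over the 6 libraries were sought among those whose log2 CPM averaged at least 3. For Jag2 these were Mrps28 (Pearson r = 0.999), Nr2c2ap (r = 0.999) and Setd6 (r = 0.998), and 797 of 8329 genes had an r of at least 0.95. For Notch3 they were Ubqln4 (r = 0.999), Plod3 (r = 0.998) and Csnk2a2 (r = 0.998), with 683 of 8330 genes at that r. For Jag1 they were Ppm1j (r = 0.995), Nipal2 (r = 0.991) and Ttc37 (r = 0.991), with 32 of 8329 genes. For Jag2 and Notch3 such values mostly describe the split between the groups, which many genes share, and they are given as a description only.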

How the data were processed

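Jejunal IEC of 3 Ctr and 3 Hdac1/2-/- mice were grouped by the labels. The authors deposited raw counts of reads per gene. Per the labels, STAR 2.4.0f1 and build mm9 were used, whereas the study's methods name GRCm38; the counting program, annotation and strand setting are not given in the sources used here. The 6 columns of counts scaled by the authors and the columns with the authors' fold changes, mean levels and p-values were not used. Counts were fitted with edgeR 4.0.16 (R 4.3.3; TMM, filterByExpr, robust quasi-likelihood, no covariates), and p-values were adjusted over all tested genes. The steps were tested on simulated data. Exon lengths and overlaps came from GENCODE for GRCm38, and figures from matplotlib 3.10.9. Alternatives changed the normalization, the filter, the robust fit and the limits, used DESeq2 1.42.0 or limma 3.58.1, and left out each mouse. The 10 genes, called genes of the wider lists, and first and most abundant markers were named by rule; Aph1a, Aph1b, Psenen, Pofut1, Numb, Rbpj, Ctbp2, Heyl, Spdef, Neurog3, Sox9, Tie1, Cdh5, Kdr, Myh11, Acta2, Des, the sex-linked genes and the overlapping genes were added after their values were seen. The members and lists were chosen with earlier results of these data known.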

Additional observations from a re-analysis of the deposited data

How the results depend on the processing

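Over 139 refits of the 10 genes, the direction and the side of the adjusted p limit were kept in 111, the adjusted p rose above 0.05 in 26, and the sign turned in 2, both for Hes1, without C3 (-0.10) and without H5 (-0.01). With 1 mouse left out, Hes1 lay between -0.10 and 0.30. The 26 belonged to Gfi1 (7), Dll4 (6), Atoh1 (5), Jag1 (4) and Dll1 (4). Leaving out a mouse lowers the number of samples, and the cause of the other shifts was not tested. Notch3, Dlk2, Aph1c, Hes5 and Gfi1b were not tested when at least 10 counts were asked for in every library.

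The number of the 10 genes at the adjusted p limit was 4 with library totals only, 2 with a limit of 0.01, and 2 to 6 when mice were left out singly. With a 1.5-fold limit, 4 of the 10 were called higher and 3 lower. Shares over all tested genes at a 1.5-fold limit or a limit of 0.01 are not given here. The counts at these limits, here and below, therefore have no background beside them. Notch pathway genes called higher numbered 5 with at least 10 counts in every library, and those called lower 3 with library totals only. Secretory fate transcription factors called lower numbered 1 with at least 10 counts in every library, 1 with an adjusted p limit of 0.01, 4 with a 1.5-fold limit, and 1 to 3 when mice were left out singly. No paired analysis was run, because the labels give no litter or other link between mice of both groups.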

Other observations

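Enteroendocrine markers were read as well. Of 5 such genes 1 was called higher, and their sum went from a mean of 449 CPM in Ctr to 1223 CPM in Hdac1/2-/- IEC. Sct, the secretin gene, carried most of that difference, from 37.1, 53.8 and 36.8 CPM to 569, 788 and 797 CPM, whereas Chga, a general marker of these cells, was level (0.02, adjusted p = 0.93). The sum of 4 markers of dividing cells was 195 and 226 CPM, and Mki67, the most abundant, had a log2 fold change of 0.35 (adjusted p = 0.24).

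Myeloid, fibroblast and B cell markers were read for other cells left in the preparation. The sum of 4 myeloid markers went from 6.83 to 16.7 CPM, mostly through Csf1r, at a mean of 3.65 CPM in Ctr and 12.3 CPM in Hdac1/2-/- IEC. Csf1r was called higher (1.75, adjusted p = 0.0023), and the other 3 markers did not pass the test. The sum of 6 fibroblast markers was 7.31 and 4.32 CPM, with Dcn the most abundant in Ctr IEC. The sum of 3 B cell markers was 1.03 and 0.481 CPM, mostly from Cd79a.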
